A study of Mus musculus with 3 samples.

Results

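The genes described here are the 5 that encode the NF-kB subunits of the mouse: Nfkb1, Nfkb2, Rel, Rela and Relb. They were chosen by gene symbol, with no measured value in the rule, and all 5 were found among the 55536 genes of the tables. NF-kB is a family of transcription factors that act as dimers, and its subunits share the Rel homology domain, which binds DNA and the partner subunit. Nfkb1 and Nfkb2 encode the precursors p105 and p100, whose N-terminal parts become p50 and p52. Rel, Rela and Relb encode c-Rel, RelA and RelB, which carry transactivation domains of their own. In macrophages the inhibitors of the IκB family hold the dimers inactive until a receptor such as TLR4, which senses the Lipid A part of bacterial lipopolysaccharide, sets off their release, and several subunit genes are themselves known NF-kB targets.

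The study sequenced total RNA from the chromatin fraction, that is RNA still held on the DNA template, after removal of ribosomal RNA. Bone-marrow-derived macrophages of the C57BL/6J strain were given 100 ng/ml Lipid A for 12 h, kept without it for 12 h, and given 100 ng/ml Lipid A again for 60 min. All 3 libraries belong to that 1 group, and no arm without Lipid A, with 1 dose only or at another time was analysed here, so no value below measures a response to Lipid A. Libraries were made from 1000 ng (replicate 1), 250 ng (replicate 2) and 500 ng (replicate 3) of RNA, with fragments of 250 to 400 bases. The labels do not say that the libraries came from separate animals or cultures, so the spreads and p-values measure differences between these libraries, which may be technical.

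The genes held 12602702, 17222239 and 17042691 estimated counts in replicates 1, 2 and 3. The authors deposited each library as a table in RSEM layout, whose values are used unless stated, and as a second one in kallisto layout, named for the quantification programs that write such columns. Macrophage identity was checked on marker genes, of which 9, Adgre1, Csf1r and Spi1 among them, reached 10 TPM (transcript abundance per length, scaled to 1 total for every library) in each library. The 10 fibroblast and stromal markers summed to 5, 46804 and 111 counts, and all 10 were highest in replicate 2, with collagen genes in front. B cell markers summed to 4, 70 and 3 counts, T and NK cell markers to 1, 1 and 0, neutrophil markers to 2, 1 and 1, and dendritic cell markers to 44, 49 and 45. In such bulk samples, fewer cells of a type and less RNA per cell cannot be told apart.

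Much of the RNA of Nfkb1 was assigned to annotated transcripts that keep intron sequence, so the exon ends at which these transcripts run on into an intron are shown first. Each is given 5′ to 3′ on the gene's strand, 30 coding exon bases in lower case and the first 30 intron bases in capitals, from the GENCODE M21 transcripts on mm10. A spliced transcript lacks the capitals.
Nfkb1-204, exon 12 into intron 12, chr3:135612384-135612443, minus strand: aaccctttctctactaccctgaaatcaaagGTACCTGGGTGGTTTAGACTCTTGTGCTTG
Nfkb1-208, exon 8 into intron 8, chr3:135618774-135618833, minus strand: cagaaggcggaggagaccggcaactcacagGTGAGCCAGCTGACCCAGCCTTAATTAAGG
Nfkb1-210, exon 16 into intron 16, chr3:135603680-135603739, minus strand: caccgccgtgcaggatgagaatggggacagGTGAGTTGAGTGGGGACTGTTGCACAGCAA
Nfkb2-207, exon 13 into intron 13, chr19:46309045-46309104, plus strand: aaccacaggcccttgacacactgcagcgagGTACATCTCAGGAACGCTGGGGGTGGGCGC

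Nfkb1 (ENSMUSG00000028163.17) lies on the minus strand of chromosome 3, positions 135584655 to 135691547 of mm10, and spans 106893 bases. Its level was 287, 266 and 496 TPM in replicates 1, 2 and 3, with a mean of 349.6 ± 127.6 (SD, n = 3). Replicate 3 stood 1.80 times above the mean of the other two, a ratio above that of 98.4% of the 4559 protein-coding genes with a mean of at least 10 TPM. The authors' tables also give a posterior mean TPM, 271, 243 and 456 for Nfkb1, which lies below the TPM in each library. The deposited credibility bounds surround that posterior mean, at 265 to 277, 237 to 249 and 448 to 464, and were far narrower than the spread between libraries.

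Nfkb2 (ENSMUSG00000025225.15), the other precursor gene, lies on the plus strand of chromosome 19, positions 46304320 to 46312385, and spans 8066 bases. Its level was 139, 142 and 202 TPM, with a mean of 161.1 ± 35.4 (SD, n = 3). Its libraries lay below all 3 of Nfkb1, without overlap.

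Rel (ENSMUSG00000020275.9), which encodes c-Rel, lies on the minus strand of chromosome 11, positions 23736847 to 23770970. It had 74.6, 71.5 and 124 TPM, a mean of 90.1 ± 29.4 (SD, n = 3). Relb (ENSMUSG00000002983.17), whose product pairs with p100 and p52, lies on the minus strand of chromosome 7, positions 19606217 to 19629438. It had 73.2, 79.1 and 85.6 TPM, a mean of 79.3 ± 6.24 (SD, n = 3), with the smallest relative spread of the 5 genes. Rela (ENSMUSG00000024927.8), which encodes the RelA (p65) subunit of the classical dimer, lies on the plus strand of chromosome 19, positions 5637483 to 5648130. It had 68.4, 46.1 and 47.0 TPM, a mean of 53.8 ± 12.6 (SD, n = 3). Rel and Relb overlapped, and Rela lay below both without overlap, although its replicate 1 came close to the lower libraries of Rel.

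**Figure D1:**
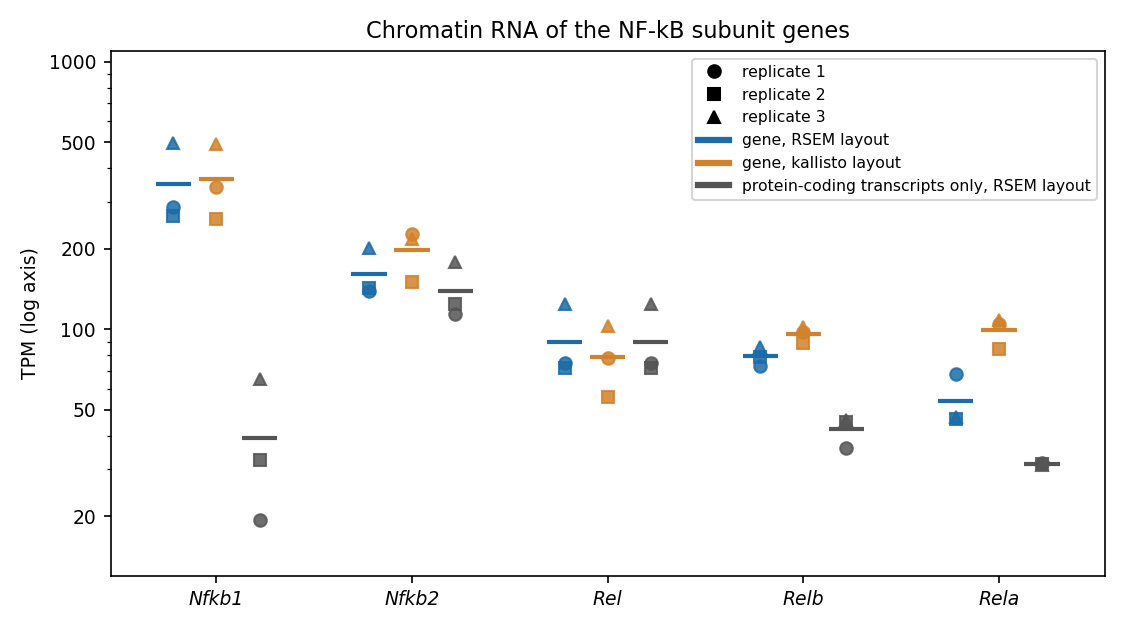
Level of each subunit gene in TPM (log axis) in the 3 libraries (marker shapes), from the gene table in RSEM layout (blue), from the table in kallisto layout (orange) and summed over protein-coding transcripts alone (grey); short lines are means. Nfkb1 is highest by gene, at 266 to 496 TPM in the RSEM layout, and drops to 19.4 to 65.4 TPM when transcripts not annotated as protein-coding are left out.

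By gene TPM the order was Nfkb1, Nfkb2, Rel, Relb, Rela. Of the 10 pairs compared as log2(TPM + 1) within libraries, 9 had the same direction in 3 of 3 libraries. An exact two-sided sign-flip test over 3 libraries cannot go below p = 0.25, the value each of these 9 pairs had (0.278 after Benjamini-Hochberg adjustment over the 10 pairs), so no pair could pass a threshold of 0.05. Nfkb1 exceeded Nfkb2 by 1.08 ± 0.20 (SD, n = 3) on that log2 scale, a ratio of 2.11. Nfkb2 exceeded Rel by 0.86 ± 0.14, a ratio of 1.81, but the difference was −0.44 in CPM (counts scaled to the library's total and not to length). Rel and Relb, neighbours in the order, differed by 0.14 ± 0.35 with Rel higher in 2 of 3 libraries (exact p = 0.75), less than the spread between libraries, and the difference was −0.32 with kallisto TPM and −0.0573 without replicate 3. Relb exceeded Rela by 0.57 ± 0.41, 0.10 in replicate 1 and 0.85 in replicate 3, and the difference was −0.0394 with kallisto TPM. The 2 precursor genes together stood 1.68 ± 0.27 above the 3 transactivating genes, higher in 3 of 3 libraries (exact p = 0.25, the smallest possible). As a share of the family's summed TPM, Nfkb1 held 46.9% ± 4.45 (SD, n = 3), Nfkb2 22.1% ± 1.26, Rel 12.1% ± 0.73, Relb 11.1% ± 2.07 and Rela 7.73% ± 2.86. With kallisto TPM the share of Rela was 12.1% ± 1.37 and that of Rel 9.34% ± 0.66. By counts, which are not scaled by length, Rel held 27.4% ± 0.99, above Nfkb2 at 20.3% ± 1.30, and Rela 4.08% ± 1.03.

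The place of Nfkb1 at the head of the order depended on how its RNA was divided by length. A gene's TPM is the sum over its transcripts, each scaled by its own length, so annotated transcripts that cover different stretches of a gene add up. With CPM divided by the kilobases of all annotated exon of a gene, merged, Nfkb1 had 78.7, 47.9 and 96.2 over its 12061 bases. Rel had 84.3, 53.3 and 100.2 over 7466 bases, and Nfkb2 had 106, 68.6 and 107 over 4584 bases. On this measure Nfkb1 was below Nfkb2 in 3 of 3 libraries, by 0.36 ± 0.18 (SD, n = 3) on the log2 scale, and below Rel in 3 of 3, by 0.10 ± 0.05. Relb had 42.1, 32.6 and 37.0 and Rela 37.5, 21.2 and 25.0, still the lowest pair, with Relb above Rela in 3 of 3. With kallisto-layout counts the same measure left Nfkb1 below Nfkb2 in 3 of 3 libraries by 0.51 ± 0.19, and Nfkb1 and Rel differed by 0.02 ± 0.04. This measure and the sums over protein-coding transcripts are alternatives chosen after the values were known.

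Counting protein-coding transcripts alone moved Nfkb1 further. Its protein-coding transcripts had 19.4, 32.6 and 65.4 TPM, a mean of 39.1 ± 23.7 (SD, n = 3). Those of Nfkb2 had 114, 124 and 179 TPM, and those of Relb 36.2, 45.0 and 45.7 TPM. Nfkb1 was then below Nfkb2 in 3 of 3 libraries, by 1.95 ± 0.53 on the log2 scale, and below Rel in 3 of 3, by 1.31 ± 0.52. It overlapped both Relb and Rela, whose protein-coding transcripts had 31.7, 31.4 and 31.0 TPM. The kallisto layout gave Nfkb1 44.5, 37.3 and 62.1 protein-coding TPM and again placed it below Nfkb2 in 3 of 3 libraries, by 1.50 ± 0.10. In both layouts, under both of these measures, Nfkb2 was above Rel, Rel above Relb and Relb above Rela in 3 of 3 libraries. The gap between precursor and transactivating genes narrowed to 0.49 ± 0.42 with protein-coding transcripts alone (1.00 ± 0.10 in the kallisto layout) and to 0.91 ± 0.20 per kilobase of annotated exon (0.80 ± 0.17).

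Which transcripts carried the RNA differed between the 2 precursor genes. GENCODE classes a transcript as retained-intron when it keeps sequence that other transcripts of the gene splice out. Of Nfkb1's TPM, 90.9%, 85.8% and 83.8% in replicates 1, 2 and 3 belonged to its 4 retained-intron transcripts, and 6.74%, 12.3% and 13.2% to its 3 protein-coding ones. Of Nfkb2's TPM, 11.7%, 7.72% and 8.12% belonged to retained-intron and 82.1%, 87.3% and 88.5% to protein-coding transcripts. The ranges of the 2 genes were far apart in both classes.

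The log2 ratio of retained-intron to protein-coding TPM was tested with limma over the 4311 genes that have both classes and enough TPM, with Benjamini-Hochberg adjustment. In all, 24.3% of these genes were called with more retained-intron RNA and 25.6% with more protein-coding RNA. Of the 4 subunit genes tested, Nfkb1 was called on the retained-intron side (3.07, SE 0.30, adjusted p = 0.0041), above 97.3% of tested genes. Nfkb2 (−3.24, SE 0.24, adjusted p = 0.0030), Rela (−1.22, SE 0.26, adjusted p = 0.020) and Relb (−0.68, SE 0.19, adjusted p = 0.0438) were called on the protein-coding side. In this ratio and in the shares above, the protein-coding class of Nfkb2 includes Nfkb2-206, which keeps intron 22 whole. That transcript held a mean of 28.3% of the gene's TPM, and the ratio with it on the retained-intron side was not tested. The median over all tested genes was −0.06. In the kallisto layout Nfkb1 and Nfkb2 kept direction and call, while Rela stood at 0.41 (adjusted p = 0.10) and Relb at 0.21 (adjusted p = 0.32), so the direction of Rela and Relb rested on the layout. The call of Relb was also lost without any 1 of the 3 replicates (adjusted p 0.0878, 0.148 and 0.176), although its ratio stayed between −0.73 and −0.63. It was lost with a minimum TPM of 1 (adjusted p = 0.0728) and with none (0.0992). The call of Rela was lost without replicate 2 (0.055) or replicate 3 (0.110). Rel has 1 annotated transcript, of 7466 bases, and could not be tested.

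**Figure D2:**
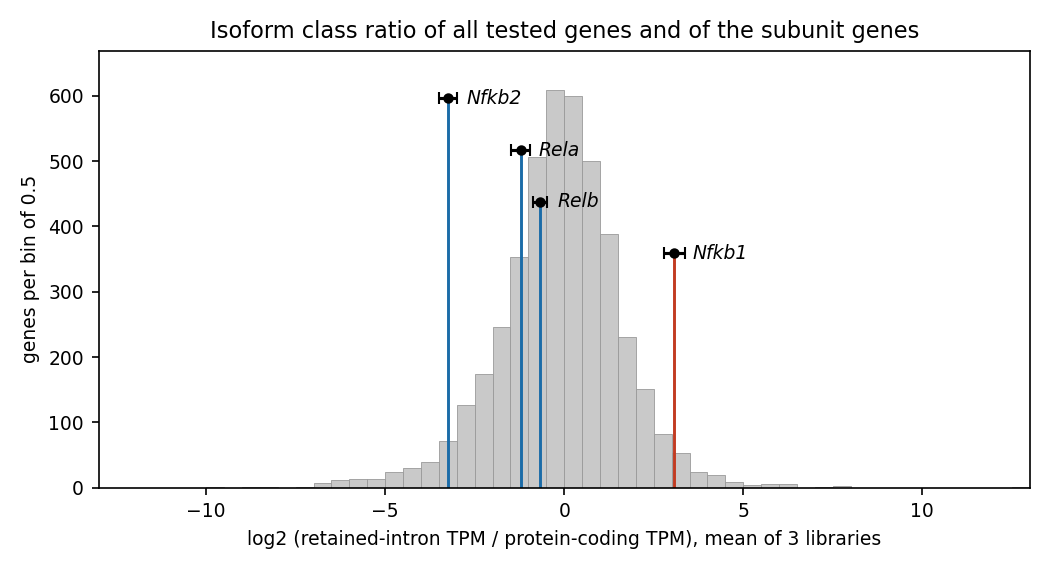
Number of genes (vertical axis) by log2 ratio of retained-intron to protein-coding TPM, mean of 3 libraries, for the 4311 tested genes (grey bars, bins of 0.5), with the 4 tested subunit genes drawn as lines ending in a point with its standard error; line height carries no value. Nfkb1, at 3.07, and Nfkb2, at −3.24, lie in opposite tails, and Rela and Relb lie left of the centre. The protein-coding class of Nfkb2 includes Nfkb2-206, which keeps a whole intron.

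**Figure D3:**
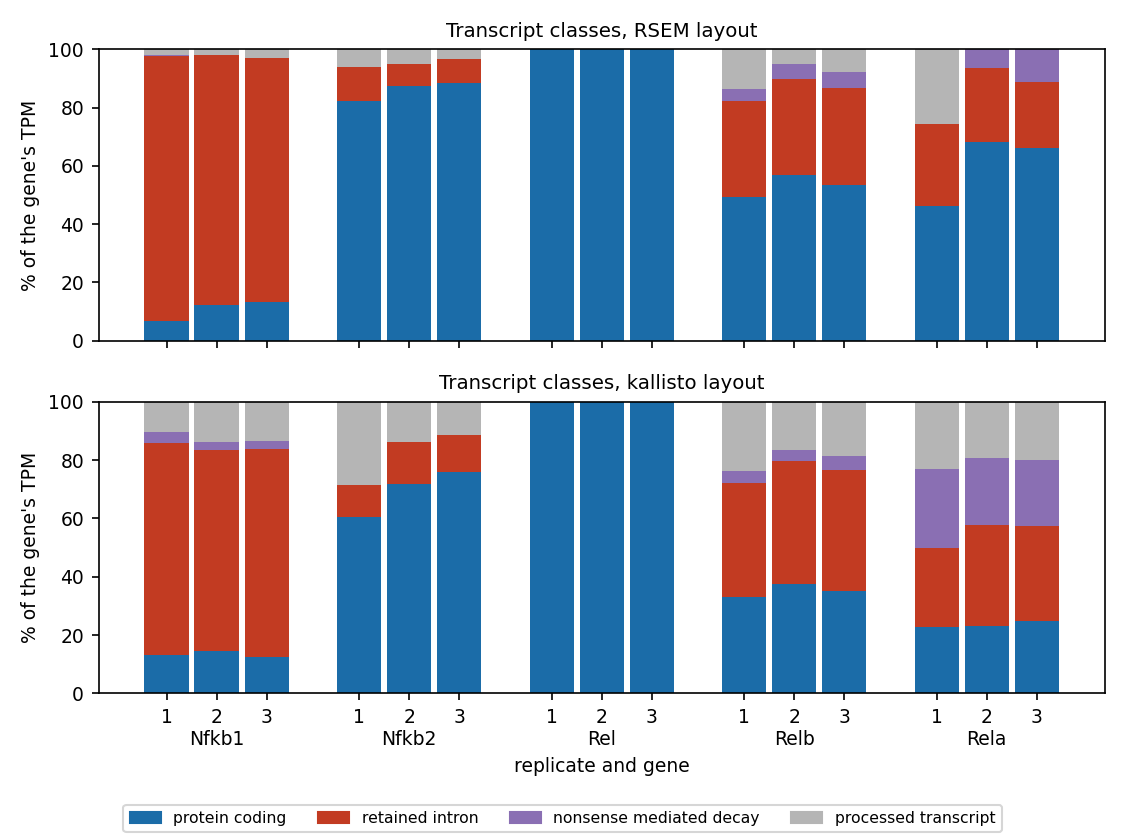
Share of each gene's TPM (percent, vertical axis) by GENCODE transcript class in replicates 1, 2 and 3, in the RSEM layout (top) and the kallisto layout (bottom). Retained-intron transcripts hold 83.8% to 90.9% of Nfkb1 in the RSEM layout and 69.1% to 72.7% in the kallisto layout, while the classes of Rela and Relb shift between the layouts.

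Nfkb1-204, the leading transcript of the gene in both layouts, had 107, 91.0 and 184 TPM. It begins at exon 1, runs through exon 12 and ends 1824 bases into intron 12, an intron of 4118 bases; its boundary sequence is the first of those printed. Exons 1 to 12 hold 352 of the 971 codons of the full-length transcript Nfkb1-201, that is 36.3% of its coding bases. Nfkb1-202 lies on the far side of that intron: it begins with the last 188 bases of intron 12 and continues through exon 13 to the last exon, exon 25. It had 43.5, 25.7 and 48.1 TPM, below Nfkb1-204 in each library.

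Nfkb1-208 and Nfkb1-210 are single exons with no splice. Nfkb1-208 consists of 3175 bases of intron 7, exon 8 and 810 bases of intron 8, and had 51.8, 61.3 and 99.4 TPM. Nfkb1-210 holds 8 bases of intron 15, exon 16 and 1851 of the 2169 bases of intron 16, and had 58.2, 49.8 and 85.0 TPM. Together these unspliced transcripts held 39.1% ± 2.43 (SD, n = 3) of the gene's TPM, and 29.4% ± 1.54 in the kallisto layout.

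The fully spliced Nfkb1-201 had 0, 0.41 and 0.18 TPM. Among the gene's protein-coding transcripts, Nfkb1-206, which starts 7 bases before exon 3, led with 15.2, 20.0 and 37.3 TPM, followed by Nfkb1-203, which starts within exon 13, with 4.11, 12.2 and 27.9. Both were lowest in replicate 1 and highest in replicate 3 in the RSEM layout. In the kallisto layout Nfkb1-206 had 43.4, 32.0 and 50.7 TPM, lowest in replicate 2. The 3 transcripts that reach from exon 1, 2 or 3 to exon 25 together held 6.97% ± 1.13 (SD, n = 3) of the gene's TPM, against 56.6% ± 0.98 for the 2 that end by exon 12 and 36.4% ± 2.10 for the 5 that begin at exon 13 or later. In the kallisto layout these shares were 15.1% ± 1.61, 46.2% ± 1.21 and 38.6% ± 0.91, in the same order.

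How much intron the tables can show differs by gene. Annotated transcripts hold 7943 of the 102775 intron bases of Nfkb1 (7.73%), in 8 of its 24 introns. For Nfkb2 they hold 818 of 4300 bases (19.0%), for Relb 1676 of 21013 (7.98%), for Rela 356 of 7932 (4.49%) and for Rel 0 of 26658. Intron reads outside these bases have no transcript of the gene to be counted on, so the class shares describe the annotated stretches and not the whole introns. For Rel, intron RNA was therefore not measured.

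**Figure D4:**
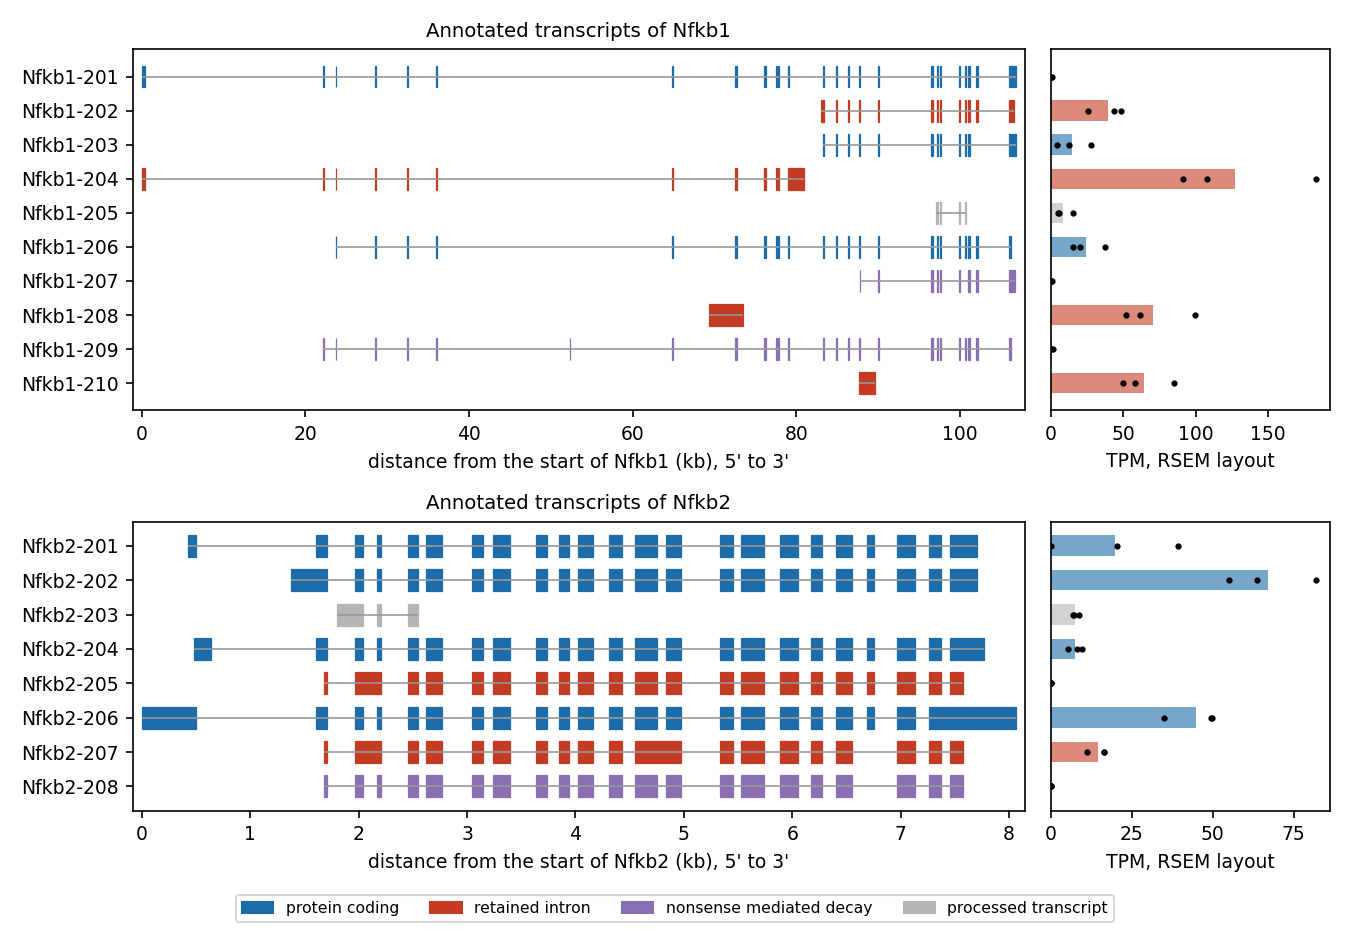
Annotated transcripts of Nfkb1 (top) and Nfkb2 (bottom), drawn to scale by distance from the start of the gene in kb, boxes for exons coloured by class, with mean TPM as bars and the 3 libraries as points (right, RSEM layout). In Nfkb1 the RNA sits on 4 retained-intron transcripts that cover separate or partial stretches, led by Nfkb1-204 at 91.0 to 184 TPM; in Nfkb2 it sits on spliced transcripts that reach the last exon, led by Nfkb2-202 at 55.2 to 82.0 TPM.

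Nfkb2 was carried by transcripts that run to the last exon. Those that do so from exon 1 or 2 held 95.1% ± 1.39 (SD, n = 3) of its TPM, against 6.97% for the transcripts of Nfkb1 that reach from exon 1, 2 or 3 to its last exon. They are 7 of the 8 annotated transcripts of Nfkb2 but 3 of the 10 of Nfkb1, so the 2 shares are not taken over like sets of transcripts. In the kallisto layout these shares were 82.2% ± 9.32, with 71.5% in replicate 1, and 15.1% ± 1.61. Nfkb2-202, which starts at a second, downstream first exon, led in both layouts, with 55.2, 63.6 and 82.0 TPM in the RSEM layout. Nfkb2-206 followed with 49.6, 35.0 and 49.6 TPM. It is classed as protein-coding but keeps the whole of intron 22, 80 bases, so the class does not sort every intron-bearing transcript of this gene. Nfkb2-207, which keeps introns 3 (121 bases) and 13 (80 bases) whole, was the retained-intron transcript with RNA, at 16.3, 11.0 and 16.4 TPM.

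The share of RNA from the 2 first exons of Nfkb2 could not be fixed. Transcripts with the upstream first exon held 44.3% ± 3.07 (SD, n = 3) of the TPM in the RSEM layout and 25.2% ± 1.29 in the kallisto layout. Part of the gap in replicates 2 and 3 lay in Nfkb2-201, which differs from Nfkb2-202 at the first exon. It had 0, 20.4 and 39.1 TPM in the RSEM layout and a mean of 0.0236 TPM in the kallisto layout. Its deposited credibility bounds were 11.4 to 23.5 in replicate 2 and 28.7 to 41.7 in replicate 3. In replicate 1 the upstream transcripts had 59.0 TPM in the RSEM layout and 60.4 in the kallisto layout. The transcripts that start at or after exon 2 had 80.1 and 166 TPM there, with Nfkb2-203 at 8.60 and 64.5. In both layouts the transcripts that start at or after exon 2 held the larger share in 3 of 3 libraries. Among them, Nfkb2-202 alone begins at the downstream first exon, while the others begin further inside the gene. In the RSEM layout Nfkb2-202 exceeded the upstream transcripts (59.0, 60.6 and 96.6 TPM) in replicate 2 alone. In the kallisto layout it had 76.7, 71.9 and 111 TPM, above their 60.4, 36.5 and 53.6.

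Since Nfkb2 and Rel are known NF-kB targets, the windows around their start sites were searched for the NF-kB consensus site on both strands, with overlapping matches allowed. The RefSeq promoter table (GRCm38.p6, 250 bases before to 50 after a start) held 5 windows for Nfkb2, Rel and Rela, and a match stood in 4 of them. Of all 32851 windows in the table, 8.46% held one. Several of the 5 windows belong to Nfkb2, and 2 of them overlap, so the windows are not independent. By gene, Nfkb2 and Rel held a match and Rela did not, beside 9.55% of all 27025 genes. The matches are shown in capitals with 10 bases on either side, 5′ to 3′ on the gene's strand, and the number before the sequence is the distance of the first capital from the start site. The first match of Rel and the first of Nfkb2 each overlap a second match shifted by 1 base, and the last site printed lies in 2 of the windows.
Rel, chr11:23771042-23771071, minus strand, at -92: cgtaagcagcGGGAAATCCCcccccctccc
Nfkb2 upstream start, chr19:46304688-46304717, plus strand, at -39: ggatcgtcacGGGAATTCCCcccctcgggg
Nfkb2 upstream start, chr19:46304716-46304745, plus strand, at -11: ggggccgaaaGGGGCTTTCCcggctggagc
Nfkb2 downstream start, chr19:46305449-46305478, plus strand, at -236: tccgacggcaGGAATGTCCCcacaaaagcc
Nfkb2 downstream start, chr19:46305695-46305724, plus strand, at 10: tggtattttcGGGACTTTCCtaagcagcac
Every window of Nfkb2 thus holds a match, and the window of Rela holds no match. Nfkb2-206, the upstream transcript with the most RNA in both layouts, starts at position 46304320, before the upstream window. The sites printed for the upstream start therefore lie inside its first exon. A match is a description of the sequence, and no binding was measured.

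The transactivating genes other than Rel have several transcripts, and the layouts divided their RNA differently. Rela-201, the full-length transcript, had 31.7, 29.9 and 31.0 TPM in the RSEM layout. The excess of Rela in replicate 1 therefore lay elsewhere: in Rela-202 and Rela-207, short transcripts from the 5′ part, which summed to 17.4 TPM in replicate 1 and 0 in replicates 2 and 3, and in Rela-203, a retained-intron transcript of 786 bases, with 19.3, 11.7 and 10.8 TPM. In the kallisto layout those 2 short transcripts summed to 24.2, 16.2 and 21.4 TPM, with no library set apart, and Rela-203 led the gene at a mean of 31.1 TPM.

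Relb-202 led its gene in the RSEM layout, at 22.7, 37.5 and 37.0 TPM, and had a mean under 1 TPM in the kallisto layout, where Relb-201 led at 22.6. These 2 transcripts share their ends and differ by 9 bases in length. The same held for the retained-intron transcripts: Relb-206 had 14.1, 19.6 and 20.4 TPM in the RSEM layout and Relb-205 had 0 in each, while the kallisto layout gave Relb-206 0 and put the RNA on Relb-205. The 2 layouts assigned 53.3%, 75.3% and 67.5% of the RNA of Relb to different transcripts, and 41.4%, 44.9% and 49.0% of that of Rela. For Nfkb1 this was 19.4%, 20.1% and 17.2%, and for Nfkb2 24.1%, 20.0% and 23.5%. Which single transcript of Relb or Rela carried the RNA was therefore not settled by these tables.

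**Figure D5:**
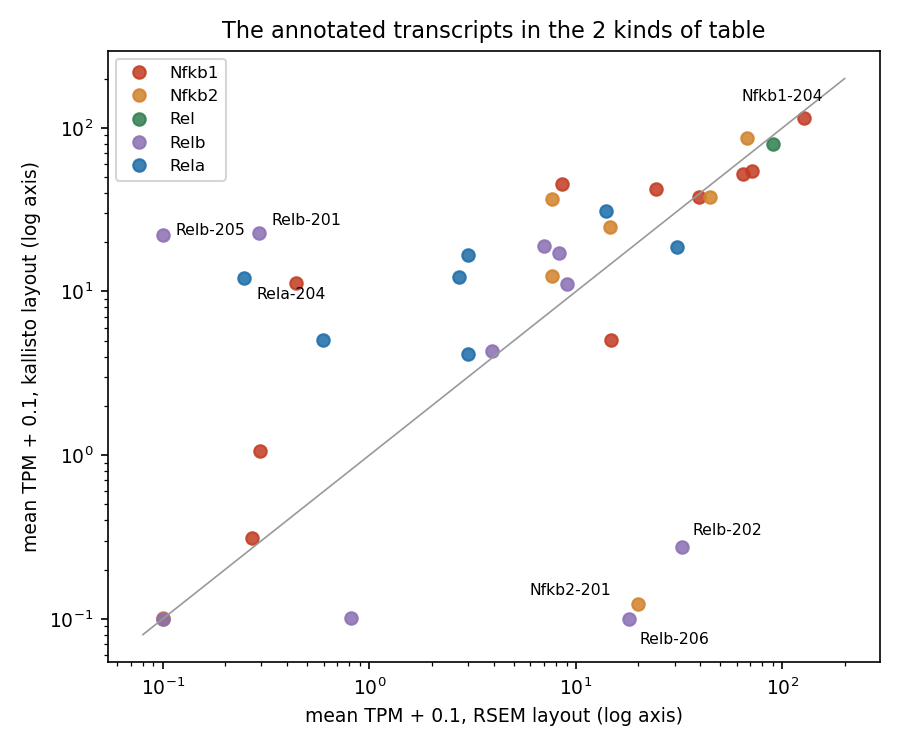
Mean TPM + 0.1 of each annotated transcript of the 5 genes in the RSEM layout (horizontal, log axis) and the kallisto layout (vertical, log axis), coloured by gene, with the line of equal values. Several transcripts of Relb lie far from the line, as do Nfkb2-201, Rela-204 and Nfkb1-209, while Nfkb1-204 and the single transcript of Rel lie close to it.

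At the level of whole genes, the kallisto layout gave 342, 258 and 493 TPM for Nfkb1, 226, 151 and 217 for Nfkb2, 78.1, 55.9 and 103 for Rel, 98.0, 88.6 and 102 for Relb, and 105, 84.8 and 108 for Rela. Rela then stood above Rel, the reverse of the RSEM layout, in 3 of 3 libraries. The within-library difference, centred on each library's median, was tested with limma over 21260 genes, of which 30.1% were called higher and 23.9% lower in the kallisto layout. Nfkb1 (−0.53, SE 0.16, adjusted p = 0.0448) and Rel (−0.78, SE 0.17, adjusted p = 0.021) were among the lower ones, while Nfkb2 (−0.30), Relb (−0.32) and Rela (0.29) were not called. These values are relative to the median gene, which was 0.54, 0.52 and 0.74 higher in the kallisto layout. Without the centring, Rel stood at −0.18 (adjusted p = 0.355), Nfkb1 at 0.07 (adjusted p = 0.706) and Rela at 0.89 (adjusted p = 0.015), and the calls of Nfkb1 and Rel were also lost without replicate 2 (adjusted p 0.186 and 0.0919) or replicate 3 (0.259 and 0.138). With no minimum TPM both calls were lost (−0.20, adjusted p = 0.204, and −0.45, adjusted p = 0.0674) and Rela was called higher (0.62, adjusted p = 0.0427). Nfkb2 was called lower without replicate 1 (−0.54, adjusted p = 0.0378).

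Across libraries of the RSEM layout, Nfkb1, Nfkb2, Rel and Relb had their highest TPM in replicate 3 and Rela in replicate 1. In that layout, of the 4559 protein-coding genes with a mean of at least 10 TPM, 21.7% were highest in replicate 3. In the kallisto layout Nfkb2 was highest in replicate 1 (226 TPM, 217 in replicate 3). Rela was highest there in replicate 3 (108 TPM, 105 in replicate 1). In CPM Relb was highest in replicate 1 (164, beside 144 in replicate 3). In CPM all 5 genes were lowest in replicate 2, which held the stromal counts: Nfkb1 had 949, 578 and 1160, Rel 629, 398 and 748, and Rela 115, 65.3 and 76.8. By TPM in the RSEM layout, Nfkb2 and Relb were lowest in replicate 1, but in the kallisto layout both were lowest in replicate 2. The share of all genes lowest in replicate 2 in CPM was not computed, so this order is not shown to be particular to the subunit genes. The part of these stromal counts in the order was not tested. An edgeR quasi-likelihood slope on the log2 of the starting RNA quantity was fitted to 14001 genes, of which 0.614% were called rising and 0.95% falling. No subunit gene was called: the slopes were 0.43 for Nfkb1, 0.39 for Nfkb2, 0.41 for Rel, 0.26 for Relb and 0.49 for Rela (unadjusted p = 0.053, adjusted p = 0.54). With 1 library per quantity, the quantity and the library cannot be told apart.

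Of the genes that overlap the precursor genes, 3 had over 10 TPM in every library, and each was highest in replicate 3 in the RSEM layout. Gm43430, a same-strand gene of 3897 bases annotated as to be experimentally tested, lies inside intron 6 of Nfkb1, an intron of 28756 bases. It had 79.3, 85.5 and 134 TPM, or 28.9% ± 2.85 (SD, n = 3) of the TPM of Nfkb1. Psd, a gene on the opposite strand, overlaps the last 299 bases of Nfkb2. It had 46.8, 53.4 and 80.9 TPM, of which Psd-214, whose nearer end lies 977 bases beyond the end of Nfkb2, held 33.5, 37.1 and 57.3, and Psd-211 held 13.0, 15.9 and 23.5. The other 12 Psd transcripts, the full-length ones among them, reached at most 0.33 TPM in any library. AC114539.1, a bidirectional promoter RNA on the opposite strand, overlaps the 5′ end of Nfkb2 and had 19.4, 20.8 and 23.3 TPM. The strand setting of the counting is not given in the sources used here, so whether reads of Nfkb2 and of these opposite-strand neighbours were kept apart was not tested. The genes within 5000 bases of Rel, Relb and Rela, which do not overlap them, had another order. In the RSEM layout Pus10 near Rel, Clptm1, Clasrp and Gm26890 near Relb, and Sipa1 near Rela were each highest in replicate 2. The share of all genes highest in replicate 2 was not computed, so this is not shown to be particular to these neighbours. In the lists below, replicate 2 was highest for 13 of 17 cofactors and modifiers and 8 of 9 processing genes. It was highest for 4 of 6 kinase and 1 of 6 IκB family genes. In the kallisto layout Clasrp was highest in replicate 3 (44.0 TPM, 42.3 in replicate 2). In replicates 1, 2 and 3, Pus10 had 12.2, 14.7 and 9.36 TPM, Clasrp 26.9, 47.6 and 35.3, and Sipa1 9.85, 22.1 and 8.32.

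The genes that regulate the subunits were read from lists. The 6 IκB family genes were all at or above 10 TPM in each library, and their median level was 95.8 ± 7.82 TPM (SD, n = 3). Among them were Nfkbia, which encodes the inhibitor IκBα, at 316, 322 and 392 TPM, and Nfkbiz, which encodes the nuclear cofactor IκBζ, at 347, 307 and 363 TPM. Both lay in the range of Nfkb1 by gene TPM. Of the 4 tested for isoform class, 0 were called with more retained-intron and 2 with more protein-coding RNA, beside 24.3% and 25.6% of all tested genes. Their median log2 ratio was −1.09, beside −0.06 over all tested genes.

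Of the 6 genes for kinases or parts of kinase complexes that release or process the subunits, 5 reached 10 TPM in every library. The list was Chuk, Ikbkb, Ikbkg, Map3k14, Tbk1 and Ikbke, and its median was 115 ± 29.5 TPM. Ikbke, which encodes IKKε, was the highest at 1584, 1412 and 1346 TPM, above every subunit gene. Map3k14, which encodes NIK, the kinase that starts the processing of p100, was the lowest at 6.92, 12.0 and 5.80. Of 5 tested genes of this list, 3 were called with more retained-intron and 1 with more protein-coding RNA (24.3% and 25.6% of all tested genes), with a median of 0.88 beside −0.06.

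Of the 9 genes for processing and degradation, 7 reached 10 TPM in every library, and the list's median was 23.8 ± 4.93 TPM. Map3k8, which encodes the kinase Tpl2 that p105 binds, had 73.7, 83.3 and 44.7 TPM, with replicate 3 lowest where Nfkb1 was highest. Of 8 tested, 2 were called with more retained-intron and 4 with more protein-coding RNA (24.3% and 25.6% of all tested genes), with a median of −0.49 beside −0.06. Of the 17 cofactors and modifiers, 9 reached 10 TPM in every library, and the median was 17.5 ± 6.71 TPM. Of 12 tested, 2 and 5 were called in those directions, against the same 24.3% and 25.6%, with a median of −0.06, beside −0.06 over all tested genes.

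Protein-coding genes with the most similar TPM in the 3 libraries were found by the Euclidean distance of log2(TPM + 1). For Nfkb1 they were Gbp6, Itga4 and Il1b, at distances of 0.35, 0.42 and 0.44, and 9 genes lay within 0.5. For Nfkb2 they were Cop1, Orai2 and Fbrs (48 genes within 0.5), for Rel Apobr, Baz1a and Cdk12 (43), for Relb Clk3, Atp6v1e1 and Batf (156), and for Rela Ccrl2, Slc15a4 and Metrnl (35). Since the distance is taken over these same values, the likeness is a description.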

How the data were processed

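The submitters' processing notes name the mm10 assembly and GENCODE M21; for the aligner, the tool versions and the strand setting, the sources used here give nothing. Per the file headers, the authors deposited gene and transcript tables in RSEM layout with expected (estimated) counts, TPM, posterior mean TPM, the share of each isoform in percent and credibility bounds, and transcript tables in kallisto layout with estimated counts and TPM. Both hold whole-transcript models, with no model for unspliced genes. The 26345 rows that name no gene held 0.269% to 1.94% of counts and were left out.

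Transcript structures came from GENCODE M21 and promoter windows from RefSeq GRCm38.p6. Transcript TPM were summed by GENCODE class, and kallisto-layout transcripts were summed by gene. Levels were compared as log2(TPM + 1) with exact two-sided sign-flip tests. limma 3.58.1 tested isoform classes (pseudocount 0.1, summed TPM of at least 5) and the layouts (TPM of at least 1), and edgeR 4.0.16, on rounded expected counts, tested the slope on starting RNA, with DESeq2 1.42.0 as an alternative. A call is an adjusted p under 0.05. Scripts were tested on simulated data. All 5 subunit genes are named, with neighbours within 5000 bases and the 3 nearest genes by distance. Members and lists were chosen with earlier results of these data known. Precision is limited by 3 libraries of 12602702 to 17222239 counts. Protein sequences and the promoter windows of Nfkb1 and Relb were not used here. The value of 1 further macrophage marker is not reported here.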

Additional observations from a re-analysis of the deposited data

How the results depend on the processing

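No paired analysis was possible because the design holds 1 group, so no groups could be paired; genes and layouts were compared within libraries. Nfkb1 minus Nfkb2 (log2, 1.08 as reported) reversed to −1.95 and −1.50 with protein-coding transcripts alone (RSEM and kallisto layout) and to −0.36 and −0.51 per kilobase of annotated exon. Nfkb2 minus Rel reversed to −0.44 in CPM, which are not scaled by length. Rel minus Relb reversed to −0.32 and Relb minus Rela to −0.0394 with kallisto TPM. Without 1 replicate, Rel minus Relb ranged from −0.0573 (without replicate 3) to 0.28. Under the other alternatives these pairs and the precursor contrast kept their direction. The isoform ratio of Rela was 0.41 and that of Relb 0.21 with kallisto TPM, and that of Relb 0.12 with expected counts in CPM. Genes with more retained-intron RNA numbered 1810 with kallisto TPM and 351 to 901 without 1 replicate, and those with more protein-coding RNA numbered 2856 with expected counts and 473 to 849 without 1 replicate. Slope calls numbered 220 rising and 1128 falling with no filter, and DESeq2 gave 73 and 53; unadjusted p under 0.05 gave 627 and 707. Genes higher in the kallisto layout numbered 10423 without centring and 3719 to 7363 without 1 replicate; those lower numbered 165 without centring, 1355 with no minimum TPM and 91 to 6464 without 1 replicate. Between layouts, Nfkb1 reversed to 0.0671, Nfkb2 to 0.30 and Relb to 0.28 without centring, and Nfkb2 to 0.0332 and Relb to 0.0134 with no minimum TPM. The cause of these changes was not tested. Leaving out a replicate lowers the number of libraries to 2, and no sign-flip test of these pairs can pass its threshold at 3 libraries.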
